A study of Canis lupus familiaris with 6 samples.

Results

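Receptors on the surface of T cells that set the strength of the T cell response were examined in whole blood of dogs fed with or without CPP-Se, a chelate of selenium with casein phosphopeptides. The genes were chosen by symbol: CD4, CD8A, CD8B, CD2, CD5, CD6, CD7, CD28, ICOS and CTLA4. Of these 10 symbols, 9 have a row among the 31512 genes of the deposited table. CD8B has none under its symbol, but a row without a symbol, ENSCAFG00000007461, is described in the file as the CD8 beta chain. It is given beside the others and left out of the counts.

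A T cell recognises peptide on an MHC molecule through its antigen receptor and the CD3 chains, and the coreceptors CD4 and CD8 bind MHC class II and class I beside it. CD28 gives the costimulatory signal when it binds CD80 or CD86 on an antigen-presenting cell, CTLA4 competes for the same ligands and dampens the response, and ICOS is a related receptor with a ligand of its own. CD2, CD5, CD6 and CD7 are adhesion and signaling molecules of the T cell membrane. CD4 is a special case in this species, because canine neutrophils carry it as well as helper T cells, and monocytes can express it too.

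Blood was taken on day 30 from 3 Beagles of the control group (CONT) and 3 of the CPP-Se group. Per the paper both groups were fed a snack, which held CPP-Se only in the CPP-Se group. All were healthy adults on the same maintenance food, and 1 library of poly-A RNA was sequenced for each dog. The labels call the dogs of a group biological replicates and name no other treatment.

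The deposited values are FPKM, fragments scaled to gene length and library size, so that levels can be compared between genes. Reads recovered from them numbered 6598173 to 8067034 on genes per dog. CPP-Se replicate 2 stood apart from the other libraries. Its 8 hemoglobin genes took 36.6% of gene reads (48.7% to 55.9% in the others), and the library size that its FPKM imply was 1.65 times its reads on genes, against 0.882 to 1.05 times. Whole blood mixes many cell types, and in such samples more cells of a type cannot be told apart from more RNA per cell.

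The comparison asked whether these receptors differed between the CPP-Se and control groups. All 9 genes reached 1 FPKM on average over the 6 dogs. CTLA4 did so only through the CPP-Se group (mean 1.45 FPKM, against 0.861 FPKM in controls), so its higher estimate is not independent of this filter. The 9 were tested on log2(FPKM + 1) with limma, two-sided, with Benjamini-Hochberg adjustment over the 9847 genes averaging 1 FPKM or more. A call needed an adjusted p under 0.05 and a 1.5-fold difference or more. The test called 0 of the 9 receptors, while 0.0305% of all genes tested were called. The estimate was higher in the CPP-Se group for 8 of the 9 and lower for CD4. The median log2 fold change of the 9 was 0.53, beside -0.0043 over all genes tested. An unadjusted p under 0.05 was found for 3 receptors that were higher in the CPP-Se group, CD5, CD6 and CD7, and for CD4, which was lower. Over all genes tested the corresponding shares were 6.87% higher and 9.10% lower, or 676 and 896 genes. That split depends on the scaling between libraries: with FPKM set to a common sum per library it was 656 higher and 264 lower, and the calls were 8 higher and 4 lower in place of 0 higher and 3 lower. These same 4 receptors were those whose groups did not overlap. Over all genes tested, 10.4% had every CPP-Se dog above every control dog and 12.6% the reverse. With FPKM set to a common sum, 5 receptors had every CPP-Se dog above every control dog, CD5, CD6, CD7, CD8A and CD28, where 10.6% of all genes tested did. On that scaling 0 receptors had the reverse, against 3.15% of genes, since CD4 then overlapped.

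**Figure D1:**
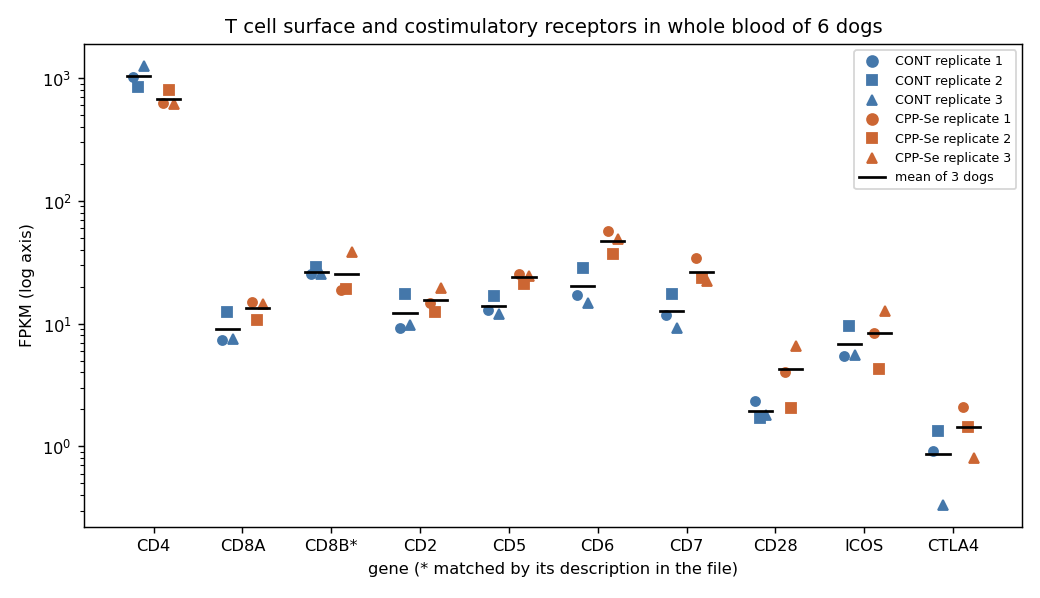
FPKM on a log axis for each receptor in each of the 6 dogs, with control dogs in blue, CPP-Se dogs in orange, a symbol shape for each replicate number and a black line at the mean of 3 dogs. CD4 lies far above the other receptors in both groups, and the groups are apart in deposited FPKM for CD4, CD5, CD6 and CD7.

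CD4 (ENSCAFG00000041713, chromosome 27, 38204003 to 38250771) had the highest level of the receptors by a wide margin. Its FPKM were 1019, 849 and 1256 in the control dogs (replicates 1, 2 and 3, the order used for all values by dog), against 627, 796 and 613 in the CPP-Se dogs. In these deposited values all 3 CPP-Se dogs were below all 3 control dogs, with CPP-Se replicate 2 close to control replicate 2. This separation depended on the library size of CPP-Se replicate 2. With FPKM set to a common sum, CD4 was 997, 764 and 1275 in the control dogs, against 586, 1221 and 528 in the CPP-Se dogs, so that CPP-Se replicate 2 exceeded control replicates 1 and 2. The same held when reads were scaled to the reads on genes, a scaling added after seeing the data. By mean FPKM over the 6 dogs, CD4 ranked 47 among all genes of the file, whereas the next receptor, CD6, ranked 1187. The mean was 1041 ± 204 FPKM in controls against 678 ± 102 FPKM with CPP-Se (SD, n = 3 here and below). This was a log2 fold change of -0.61 (95% confidence interval -1.20 to -0.02, limma, adjusted p = 0.297), and -0.45 with a common sum of FPKM (adjusted p = 0.718). Where each library was instead scaled by the median ratio of its genes to their mean over dogs, it was -0.595 (limma, adjusted p = 0.306). That scaling left the median log2 fold change over all genes tested at 0.0073, against 0.13 with a common sum. Between 6199 and 17542 reads per dog lay on CD4, so counting error was small.

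CD4 stood at 25.5 to 140 times the geometric mean FPKM of the 4 CD3 chain genes of the same dog. Such a ratio within a library does not depend on how libraries were scaled. It was 78.0, 54.3 and 140 in the control dogs, against 32.5, 39.7 and 25.5 in the CPP-Se dogs, again with every CPP-Se dog below every control dog. The mean log2 ratio was 1.39 lower in the CPP-Se group (exact permutation test, two-sided, p = 0.1, adjusted p = 0.35 over 14 ratios). With 3 dogs against 3, this p is the smallest the test can give, so none of the ratios could pass.

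Most marker genes of neutrophils and monocytes had lower estimates in the CPP-Se group, as CD4 did, and none was called by limma. Of 10 neutrophil markers, 8 had a row and all 8 were tested. The estimate was lower for 7 of them, 5 of which had an unadjusted p under 0.05, and 0 were called. The exception was MMP9, a gelatinase of neutrophil granules, with 96.3, 68.3 and 86.1 FPKM in the control dogs, against 729, 23.7 and 540 in the CPP-Se dogs. CPP-Se replicates 1 and 3 were far above all control dogs and replicate 2 below them, and the log2 fold change of MMP9 was 1.35 (95% confidence interval -1.29 to 3.99, limma, adjusted p = 0.606). The summed FPKM of the 8, MMP9 included, were 2411 to 3200 in the control dogs, against 1839 to 2353 in the CPP-Se dogs. Of 9 monocyte markers, 8 had a row and 7 were tested. All 7 were lower, 6 with an unadjusted p under 0.05, and 0 were called. CD163, 1 of the 6, reached the level tested only through the control group, with means of 1.70 FPKM in controls and 0.454 FPKM with CPP-Se. Its lower estimate is therefore not independent of the filter. The sums over the 8 monocyte markers were 841 to 989 FPKM in the control dogs, against 403 to 468 FPKM in the CPP-Se dogs. With FPKM set to a common sum, the neutrophil sums overlapped, at 2183 to 3131 in the control dogs and 1586 to 2955 in the CPP-Se dogs, whereas the monocyte sums stayed apart. None of the markers with a row, in either list, was at 0 in all dogs, and the defining monocyte gene CD14 had no row under its symbol. The part of neutrophils and monocytes in the difference in CD4 was not tested.

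CSF3R, the receptor of the neutrophil growth factor G-CSF, had a log2 fold change of -0.89 (limma, adjusted p = 0.196). The ratio of the FPKM of CD4 to that of CSF3R, a ratio picked with the values in view, was 1.12, 1.19 and 1.16 in the control dogs, against 1.37, 1.33 and 1.53 in the CPP-Se dogs. Within a dog, where the scaling of libraries has no part, CD4 was therefore lower in the CPP-Se group against the CD3 chains and higher against CSF3R, in both cases without overlap of the dogs.

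**Figure D2:**
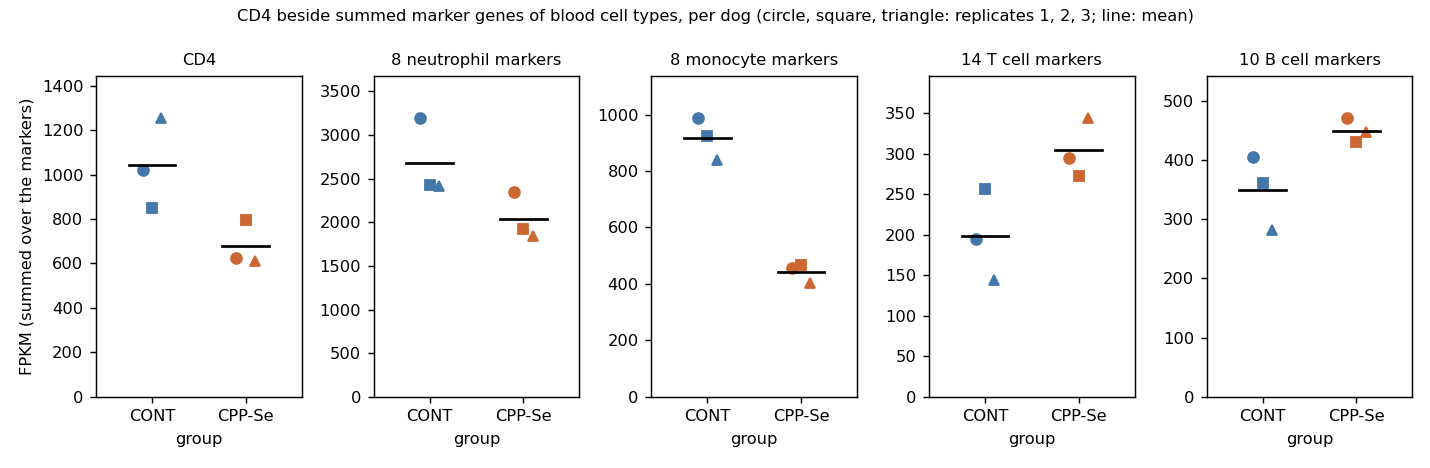
FPKM of CD4 and summed FPKM of the marker genes of 4 blood cell types in each dog, by group, with a line at the mean of 3 dogs and each axis starting at 0. In deposited FPKM, CD4, neutrophil and monocyte sums are lower in all 3 CPP-Se dogs and T and B cell sums are higher in all 3, but CD4, neutrophil and B cell values overlap with FPKM set to a common sum.

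CD8A (ENSCAFG00000007464, chromosome 17, 38369414 to 38400508) encodes the alpha chain of the coreceptor of cytotoxic T cells. Its FPKM were 7.35, 12.3 and 7.47 in the control dogs, against 14.9, 10.7 and 14.4 in the CPP-Se dogs. Control replicate 2 lay above CPP-Se replicate 2, so the groups overlapped, though not with FPKM set to a common sum. The log2 fold change was 0.53 (95% confidence interval -0.03 to 1.10, limma, adjusted p = 0.339).

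The row described as the CD8 beta chain (ENSCAFG00000007461, chromosome 17, 38317968 to 38358129) lies beside CD8A, 11284 bases away. It had 25.5, 28.7 and 25.4 FPKM in the control dogs, against 18.9, 19.3 and 38.3 FPKM in the CPP-Se dogs. The control dogs lay close together and inside the range of the CPP-Se dogs, among which replicate 3 was high. The log2 fold change of CD8B was -0.13 (95% confidence interval -0.78 to 0.52, limma, adjusted p = 0.863), and its sign changed with the scaling between libraries and without CPP-Se replicate 1 or 2. Another gene, ENSCAFG00000028877, lies within it on the same strand and held 53 reads over the 6 dogs, against 1880 on the CD8 beta chain row. How the counting shared reads between them is not given in the sources used here.

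The beta chain row exceeded CD8A in FPKM in all 6 dogs. The ratio was 3.47, 2.32 and 3.40 in the control dogs, against 1.27, 1.80 and 2.66 in the CPP-Se dogs, with control replicate 2 and CPP-Se replicate 3 overlapping. Its mean log2 value was 0.72 lower in the CPP-Se group (exact permutation test, two-sided, p = 0.2). Relative to the CD3 chains, the beta chain was 1.95, 1.83 and 2.83 in the control dogs, against 0.980, 0.961 and 1.59 in the CPP-Se dogs, without overlap and 0.92 lower in mean log2 ratio (exact permutation test, p = 0.1). The FPKM of CD4 was 68.8 to 168 times that of CD8A in the control dogs, against 42.1 to 74.4 times in the CPP-Se dogs, and the groups overlapped through control replicate 2 and CPP-Se replicate 2.

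CD6 (ENSCAFG00000016378, chromosome 18, 55296986 to 55335880), a receptor of the scavenger receptor cysteine-rich family that binds ALCAM, had the largest difference of the receptors. Its FPKM were 17.1, 28.6 and 14.7 in the control dogs, against 56.4, 36.9 and 49.1 in the CPP-Se dogs. Every CPP-Se dog lay above every control dog. The mean was 20.1 ± 7.45 FPKM against 47.5 ± 9.82 FPKM, 2.36-fold higher with CPP-Se. The log2 fold change was 1.23 (95% confidence interval 0.58 to 1.89, limma, adjusted p = 0.144).

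CD5 (ENSCAFG00000016332, chromosome 18, 55217276 to 55235405), of the same receptor family and known to restrain signals from the antigen receptor, lies 61580 bases from CD6. Its FPKM were 12.9, 16.9 and 12.1 in the control dogs, against 25.6, 21.1 and 24.5 in the CPP-Se dogs. The groups were apart, and the dogs within each group were close. The mean was 13.95 ± 2.61 FPKM against 23.8 ± 2.32 FPKM, with a log2 fold change of 0.74 (95% confidence interval 0.29 to 1.18, limma, adjusted p = 0.176).

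CD7 (ENSCAFG00000029286, chromosome 9, 45634 to 48749) is carried by T cells and NK cells. Its FPKM were 11.7, 17.3 and 9.19 in the control dogs, against 34.1, 23.3 and 22.0 in the CPP-Se dogs, without overlap. The mean was 12.7 ± 4.15 FPKM against 26.5 ± 6.66 FPKM, with a log2 fold change of 1.02 (95% confidence interval 0.39 to 1.65, limma, adjusted p = 0.181).

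CD2 (ENSCAFG00000009829, chromosome 17, 54171848 to 54184225), an adhesion molecule of T and NK cells, did not separate the groups. Its FPKM were 9.29, 17.5 and 9.70 in the control dogs, against 14.8, 12.5 and 19.3 in the CPP-Se dogs. Control replicate 2 exceeded 2 of the 3 CPP-Se dogs. The log2 fold change of CD2 was 0.36 (95% confidence interval -0.28 to 1.01, limma, adjusted p = 0.571), and ran from 0.20 without CPP-Se replicate 3 to 0.63 without control replicate 2.

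The calls on CD5, CD6 and CD7 depended on the model of the reads. The paper used DESeq2 with the same thresholds on adjusted p and fold change. It lists CD5 and CD6 among its up-regulated hub genes. When the recovered reads were modelled as negative binomial, an alternative chosen after seeing the data, the fit called these 3 of the 9 receptors, all higher in the CPP-Se group, with adjusted p of 0.0107 for CD5, 0.000685 for CD6 and 0.00787 for CD7. Over all alternatives the adjusted p ranged from 0.0107 to 0.462 for CD5, from 0.000685 to 0.455 for CD6 and from 0.00787 to 0.462 for CD7. The same model called 2.78% of all genes tested as higher in the CPP-Se group. CD6 was also called by limma-voom with sample quality weights, likewise chosen after (adjusted p = 0.0430), which called 0.528% of all genes tested as higher. With each dog left out in turn, the log2 fold change in the limma fit stayed between 1.05 and 1.504 for CD6, 0.65 and 0.87 for CD5, and 0.82 and 1.25 for CD7.

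These receptors were also set against the CD3 chains of the same dog. The ratio of CD5 to the chains was 0.984, 1.08 and 1.35 in the control dogs, against 1.32, 1.05 and 1.02 in the CPP-Se dogs. The groups overlapped, and their mean log2 ratios differed by -0.0026. That of CD6 was 1.31, 1.83 and 1.64 in the control dogs, against 2.92, 1.84 and 2.04 in the CPP-Se dogs. CPP-Se replicate 2 was only just above control replicate 2, and the mean log2 ratio of CD6 was 0.50 higher in the CPP-Se group (exact permutation test, two-sided, p = 0.1, adjusted p = 0.35). Without CPP-Se replicate 1 the difference for CD6 was 0.30. The ratios of CD2, CD7 and CD8A to the chains overlapped between the groups, with differences in mean log2 ratio of -0.39, 0.30 and -0.19 (exact permutation test, p = 0.3, 0.4 and 0.4). With a dog left out they ranged from -0.60 to -0.27 for CD2, from 0.037 (without CPP-Se replicate 1) to 0.51 (without CPP-Se replicate 3) for CD7, and from -0.37 to -0.078 for CD8A.

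**Figure D3:**
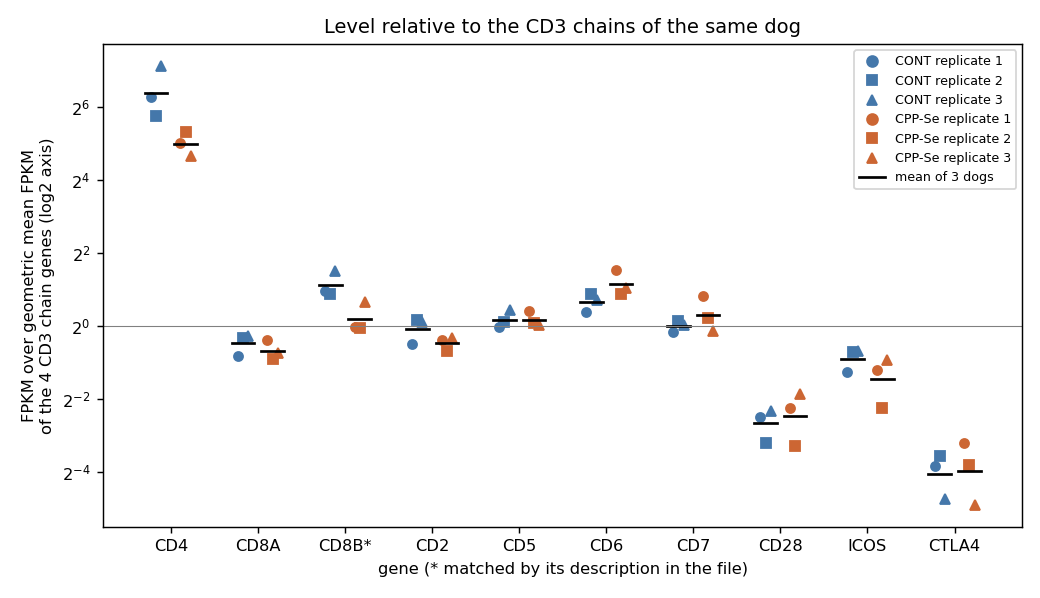
FPKM of each receptor divided by the geometric mean FPKM of CD3D, CD3E, CD3G and CD247 in the same dog, on a log2 axis, with a black line at the geometric mean of 3 dogs. The groups are apart for CD4 and CD8B, which are lower in the CPP-Se group, and narrowly for CD6, which is higher.

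CD28, CTLA4 and ICOS form a gene cluster on chromosome 37, where CTLA4 lies 101708 bases from CD28 and ICOS 17124 bases from CTLA4. These genes had the lowest levels of the receptors in the control group, and their groups overlapped in deposited FPKM in each case. The costimulatory receptor CD28 (ENSCAFG00000012872, 12503811 to 12532854) had 2.33, 1.70 and 1.80 FPKM in the control dogs, against 4.07, 2.06 and 6.62 FPKM in the CPP-Se dogs. CPP-Se replicates 1 and 3 were above all control dogs, while replicate 2 was below control replicate 1. With FPKM set to a common sum, CPP-Se replicate 2 was at 3.16 and above all control dogs, which reached 2.28. Its log2 fold change was 0.74 (95% confidence interval -0.03 to 1.51, limma, adjusted p = 0.331), on 15 to 56 reads per dog.

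ICOS (ENSCAFG00000012880, 12670999 to 12733458), which is induced on activated T cells, had 5.43, 9.47 and 5.58 FPKM in the control dogs, against 8.37, 4.24 and 12.6 FPKM in the CPP-Se dogs. The highest and the lowest value were both in the CPP-Se group. Its log2 fold change was 0.20 (95% confidence interval -0.65 to 1.05, limma, adjusted p = 0.835), and it turned to -0.12 without CPP-Se replicate 3.

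CTLA4 (ENSCAFG00000012876, 12634563 to 12653874) had 0.917, 1.33 and 0.334 FPKM in the control dogs, against 2.10, 1.44 and 0.804 FPKM in the CPP-Se dogs. This rested on only 14, 19 and 6 reads and on 30, 43 and 11 reads, so counting error was large. The log2 fold change was 0.40 on the log2(FPKM + 1) scale (95% confidence interval -0.36 to 1.16, limma, adjusted p = 0.596), and 0.76 with a pseudocount of 0.1.

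Within the cluster, ICOS exceeded CD28 in FPKM in all 6 dogs. The ratio of ICOS to CD28 was 2.33, 5.57 and 3.10 in the control dogs, against 2.06, 2.06 and 1.90 in the CPP-Se dogs. It was lower in all CPP-Se dogs, which were nearly equal, by 0.77 in mean log2 ratio (exact permutation test, two-sided, p = 0.1, adjusted p = 0.35). Without control replicate 2 this difference was -0.42. The ratio of CTLA4 to CD28 ranged from 0.185 to 0.783 in the control dogs, against from 0.121 to 0.699 in the CPP-Se dogs, nearly the same range.

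In the order of mean FPKM, the control group ran from CD4 through CD8B, CD6, CD5, CD7, CD2, CD8A, ICOS and CD28 to CTLA4. From CD8B to ICOS the ranges of neighbours in this order overlapped, so their places are not fixed by 3 dogs. In the CPP-Se group CD6 came directly after CD4, followed by CD7, CD8B, CD5, CD2, CD8A, ICOS, CD28 and CTLA4. There the ranges were apart between CD4 and CD6, between CD6 and CD7 and between CD5 and CD2, and overlapped between the other neighbours.

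Some dogs stood at the edge of their group in most of these receptors. Control replicate 2 had the highest FPKM of the control dogs in 7 of the 9 receptors and the lowest CD4. CPP-Se replicate 2 had the lowest FPKM of the CPP-Se dogs in 6 of the 9 and the highest CD4, but with FPKM set to a common sum it had the highest in 7 of the 9. Its place within the group thus turned with the scaling, while control replicate 2 remained highest in 7. CPP-Se replicate 2 is the library with the low hemoglobin share, and the part of that library in the results was not tested beyond these scalings and leaving it out. Without it, 0 of the 9 receptors were called in the limma fit, and the log2 fold change was -0.73 for CD4, 1.40 for CD6 and 1.08 for CD28. Without CPP-Se replicate 3, that of CD28 was 0.43.

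The ligands of these receptors sit on antigen-presenting and other cells. Of 7 ligands listed, 4 had a row under their symbol and 3 were tested, of which 0 were called. CD86 (ENSCAFG00000011751), a ligand of CD28 and CTLA4, had 5.71, 8.48 and 3.95 FPKM in the control dogs, against 2.76, 2.57 and 1.78 FPKM in the CPP-Se dogs. It was lower in every CPP-Se dog in deposited FPKM, though relative to reads on genes CPP-Se replicate 2 exceeded control replicate 3. It had a log2 fold change of -1.02 (95% confidence interval -1.66 to -0.39, limma, adjusted p = 0.179). CD80, the other ligand of CD28 and CTLA4, had 1.05 to 2.52 FPKM in the control dogs, against 1.28 to 2.74 FPKM in the CPP-Se dogs, and a log2 fold change of -0.0011 (95% confidence interval -0.70 to 0.70). CD48, a partner of CD2 in rodents, had 27.6 to 38.6 FPKM against 23.3 to 29.5 FPKM, with overlap. ALCAM, the ligand of CD6, was below the level tested, at 0.545 to 0.817 FPKM in the control dogs, against 0.658 to 0.871 FPKM in the CPP-Se dogs.

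Of 20 other costimulatory and inhibitory receptors, all had a row, 14 were tested and 0 were called. The estimate was higher in the CPP-Se group for 11 of the 14, with a median log2 fold change of 0.55. An unadjusted p under 0.05 was found for 5, all higher and named after their values were seen: CD27, CD40LG, CD96, TNFRSF18 and TNFRSF25. CD96 reached the level tested only through the CPP-Se group, with means of 0.787 FPKM in controls and 1.95 FPKM with CPP-Se. Its higher estimate is therefore not independent of the filter. TNFRSF25, a death domain receptor that costimulates T cells, had the largest estimate in the main fit. It had 21.8, 25.9 and 15.3 FPKM in the control dogs, against 83.7, 43.7 and 44.0 FPKM in the CPP-Se dogs. With a pseudocount of 0.1, LAG3 and CD96 had larger estimates. The groups of TNFRSF25 were apart, and its log2 fold change of 1.37 (95% confidence interval 0.65 to 2.08) had an adjusted p of 0.144 in limma. In deposited FPKM, 3 of the 14 had every CPP-Se dog above every control dog and 1 the reverse, beside 10.4% and 12.6% of all genes tested. The reverse was VSIR, at 208 to 250 FPKM in the control dogs against 152 to 187 FPKM. Its log2 fold change was -0.44 (95% confidence interval -0.89 to 0.01, limma, adjusted p = 0.327). CD244, a receptor of NK cells and some T cells, had the lowest estimate at -0.45 (95% confidence interval -1.20 to 0.30, limma, adjusted p = 0.538). TNFRSF9, an activation-induced receptor, was listed at 0 in all 6 dogs.

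The CD3 chains and proximal signaling genes were compared as the machinery that these receptors modulate. All 19 listed were tested, 0 were called, and 13 were higher and 6 lower by estimate, with a median log2 fold change of 0.36. Of these, 8 higher genes and 1 lower gene had an unadjusted p under 0.05. CD3D had the largest estimate, at 6.94, 7.78 and 6.93 FPKM in the control dogs, against 16.6, 12.4 and 22.5 FPKM in the CPP-Se dogs, a log2 fold change of 1.11 (95% confidence interval 0.57 to 1.64, limma, adjusted p = 0.138). LCP2, an adaptor that myeloid cells use as well as T cells, had the lowest, at 51.2 to 56.7 FPKM against 34.4 to 36.8 FPKM (with overlap once FPKM were set to a common sum), a log2 fold change of -0.59 (95% confidence interval -0.97 to -0.22, limma, adjusted p = 0.183). CD3G, by contrast, overlapped between the groups with a log2 fold change of 0.10 (95% confidence interval -0.52 to 0.72).

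**Figure D4:**
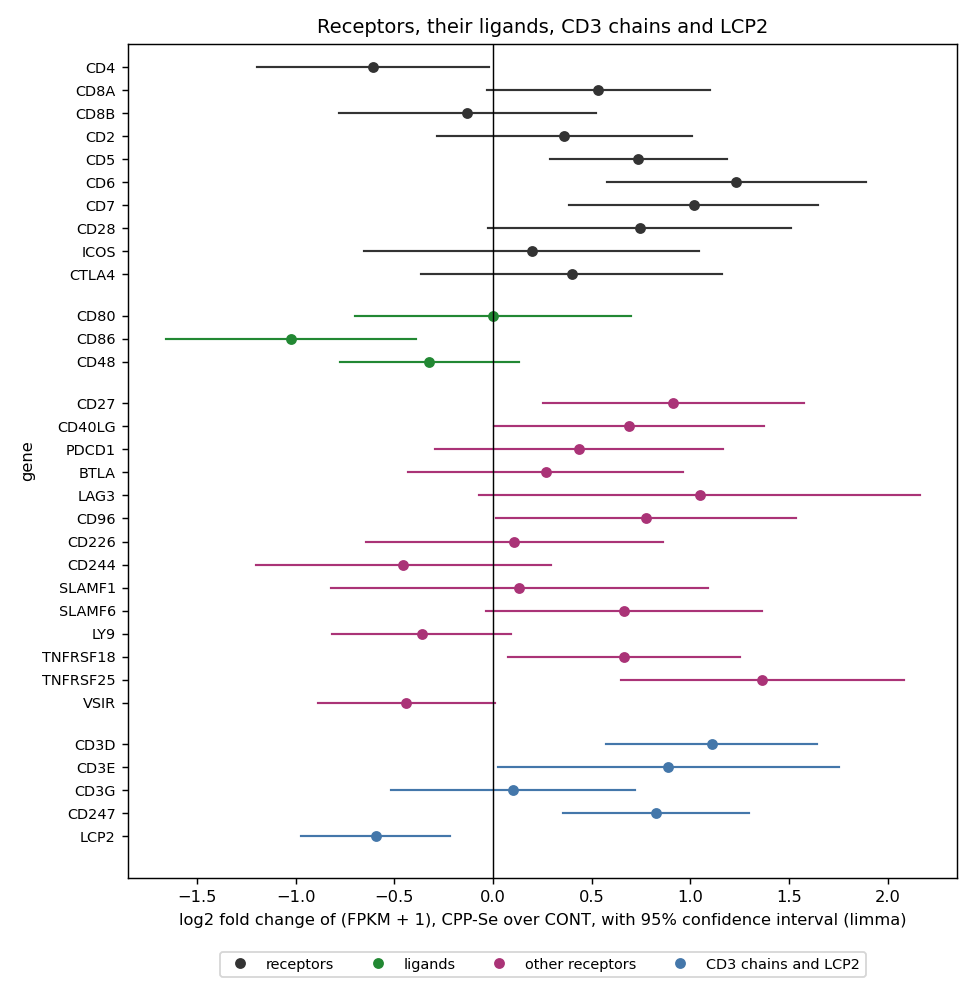
Log2 fold change of FPKM + 1 in the CPP-Se group over the control group with its 95% confidence interval from limma, for the receptors, the ligands tested, other costimulatory and inhibitory receptors, the 4 CD3 chains and LCP2. Most receptors lie to the right of 0, and CD4, CD86 and LCP2 have intervals wholly to the left.

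Other lymphocyte markers were also higher by estimate. Of 14 T cell markers outside the receptors, 6 of them CD3 chains or signaling genes already counted above, all were tested, 13 were higher by estimate, 5 had an unadjusted p under 0.05, and 0 were called. Their summed FPKM were 145 to 256 in the control dogs, against 273 to 344 in the CPP-Se dogs. For 10 B cell markers the sums were 282 to 404 FPKM and 430 to 471 FPKM (overlapping with a common sum of FPKM), with 8 of 9 tested higher. For the 9 NK and cytotoxic markers with a row they were 18.2 to 37.6 FPKM and 44.7 to 69.7 FPKM, with 7 of 7 tested higher. None of the markers in these lists was at 0 in all dogs. CD2, CD7 and CD8A are carried by NK cells too, and the part of cell composition in the differences between the receptors was not tested.

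Across the 6 dogs, the genes most like the mean standardised level of the 9 receptors were COMMD9, LRRC41, HEATR1, HCST and SALL2, with Pearson correlations of 0.995, 0.989, 0.988, 0.985 and 0.984. These are the highest of 9847 genes over 6 points that fall into both groups, and they are given as a description. HCST, the adaptor DAP10 of the receptor NKG2D, averaged 10.8 FPKM in controls against 19.7 FPKM with CPP-Se.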

How the data were processed

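Whole blood RNA of 6 dogs was analysed. Per the paper, the authors aligned filtered reads with HISAT2 to the dog genome of Ensembl release 100, whose coordinates are used here, and computed the deposited FPKM from gene length and reads on the gene. The submitters' processing notes name CASAVA 2.19, fastp 0.19.7, HISAT2 2.0.5 and featureCounts 1.5.0-p3. The library size behind the FPKM and the use of strand are not given in the sources used here.

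FPKM multiplied by gene length came in whole steps (within 0.01) for 100% of genes in each library, and these were taken as reads. Groups and replicate numbers came from the sample titles. The test was limma 3.58.1 in R 4.3.3 (lmFit, eBayes with trend) on log2(FPKM + 1), which understates changes of low genes, in genes averaging 1 FPKM or more. Calls needed an adjusted p under 0.05 and a 1.5-fold difference or more. Ratios were tested in scipy 1.17.1 by exact permutation, two-sided, with Benjamini-Hochberg adjustment over 14 ratios. CD8B and CD247 were matched by the description in the file.

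The receptors and lists were chosen with earlier results of these data known. Some listed genes are not reported here by name. All receptors with a row were named, and of each other list the largest and the lowest estimate. The alternatives were another pseudocount, other filters, 3 other scalings, no trend, a replicate block, limma-voom, and each dog left out. Limma-voom with quality weights was added after seeing the data, as was a negative binomial model with dispersions shrunk to, and not below, a trend. The fits were tested on data simulated with the same dispersion for every gene and with no library set apart in composition. There the negative binomial model called more unchanged genes than limma. Since these settings differ from the data, this does not show whether its calls on CD5, CD6 and CD7 are false. The number of dogs and the reads per gene set the precision, and error from PCR was not separated from counting error.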

Additional observations from a re-analysis of the deposited data

How the results depend on the processing

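Of the 9 receptors, 0 were called in the main fit and in 15 of the 17 alternatives. Limma-voom with sample quality weights called 1 and the negative binomial model 3, both chosen after seeing the data. Of the 3 ligands, 14 other receptors and 19 signaling genes tested, these models called 3 (TNFRSF25, CD3D and ZAP70) and 10 (CD86 among them). Over all 9847 genes tested they called 156 and 670. The other alternatives called 0 of the ligands, other receptors and signaling genes. Over all genes, the main fit called 3, with 676 higher and 896 lower at an unadjusted p under 0.05. The count was 0 with a pseudocount of 0.1 and 0 without a filter (limma, 666 higher and 871 lower, and 813 higher and 1044 lower, at an unadjusted p under 0.05), 12 with a common sum of FPKM, 1 with the replicate block, 1 with limma-voom, 156 with sample quality weights, 670 with the negative binomial model, and 0 to 14 with a dog left out (14 without CPP-Se replicate 2, 1 without CPP-Se replicate 1 and 0 without any other dog). The cause was not tested. A common sum of FPKM moved the median log2 fold change of all genes to 0.13, against which the receptors' values are to be read.

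The log2 fold changes of CD2, CD4, CD5, CD6, CD7, CD8A, CD28 and CTLA4 kept their direction in all 17 alternatives, but sizes moved with single dogs and with the model. That of CTLA4 was 0.93 with limma-voom and 0.86 with quality weights, and that of ICOS 0.079 with limma-voom. With a dog left out, CD2 ranged from 0.20 (without CPP-Se replicate 3, 0.21 without control replicate 1 and 0.24 without control replicate 3) to 0.63 (without control replicate 2), CD28 from 0.43 (without CPP-Se replicate 3) to 1.08 (without CPP-Se replicate 2), and CTLA4 from 0.18 (without control replicate 3, 0.21 without CPP-Se replicate 1) to 0.60 (without CPP-Se replicate 3). That of ICOS ranged from -0.12 to 0.57 with a dog left out, and was below 0 only without CPP-Se replicate 3. That of CD8B was 0.020 with a common sum, 0.011 with a common sum without hemoglobin genes, and -0.45 to 0.038 with a dog left out, among them 0.038 without CPP-Se replicate 1 and 0.025 without CPP-Se replicate 2. Of the 14 ratios, 4 changed sign in an alternative. Of those that did not, CD8B to CD8A was -0.46 without CPP-Se replicate 1. ICOS to the CD3 chains was -0.18 without CPP-Se replicate 2, against -0.57 with all dogs. With a dog left out, the difference in mean log2 ratio ranged from -0.66 to 0.64 for CTLA4 to CD28 and from -0.096 to 0.62 for CD28 to the CD3 chains, both changing sign without control replicate 2 or CPP-Se replicate 3. It ranged from -0.12 to 0.13 for CD5 to the chains (changing sign without control replicate 3 or CPP-Se replicate 2 or 3) and from -0.31 to 0.54 for CTLA4 to the chains (control replicate 3 or CPP-Se replicate 1 or 2). On log2(FPKM + 1) it was 0.0055 for CD5, -0.33 for CTLA4 and 0.012 for CD28 to the chains, and -0.35 for CTLA4 to CD28. The main values of these 4 ratios were -0.0026, 0.077, 0.21 and -0.13.

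Same-numbered dogs did not deviate together (correlations of deviations from the group means across genes of 0.016, -0.090 and -0.043 for replicates 1, 2 and 3), so the numbers were not taken as pairs. With the replicate block, 0 receptors were called, with adjusted p of 0.259 for CD6 and CD7 and 0.293 for CD5, and paired ratios cannot reach an exact permutation p under 0.25. Depth limits CTLA4, CD28 and ICOS most, with as few as 6, 15 and 38 reads in a dog.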
